A study of Homo sapiens with 8 samples.

Results

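The genes described here are 28 cell cycle and DNA repair genes measured in MIA PaCa-2, a long-established cell line from a human pancreatic ductal adenocarcinoma. They were chosen by symbol from a table of 3666 genes: E-type cyclins, cyclin-dependent kinases and their inhibitors and partners, E2F transcription factors, DNA polymerase epsilon, the GADD45 family and genes named for repair. The cells were labelled wild type and untreated, except that the sorting procedure exposed every sample for a short time to lactate medium, which was then washed out. They were sorted by flow cytometry by how readily lactic acid crossed their membrane, into the fractions PHLac-low (low permeability) and PHLac-high (high permeability), which stand for opposite ends of metabolic rate in the study. There were 4 repeats of the sort, so 4 PHLac-low and 4 PHLac-high libraries of messenger RNA are paired by repeat. All samples come from 1 cell line, and the 2 fractions differ in the sort alone as far as the labels say.

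Cells enter S phase when cyclin-dependent kinases bound to D-type and E-type cyclins phosphorylate the retinoblastoma protein and release E2F factors, which then switch on the genes of DNA replication. The inhibitor p21, encoded by CDKN1A, restrains these kinases, and the GADD45 proteins respond to DNA damage and other stress. Repair of broken or altered DNA is divided among homologous recombination, end joining and excision pathways. MIA PaCa-2 cells are known to have lost CDKN2A, so part of this network is altered in every sample.

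The values are read counts that the authors divided by a size factor per library, called normalised counts here. The table lists genes that passed the authors' own threshold, with a highest deposited adjusted p-value of 0.050, so every gene in it had already been selected for a difference between these libraries. Reads in the listed genes numbered from 8979276 to 23176205 per library. Genes of the CDC, MCM, ORC, RFC, CHEK, FANC and BRCA families were not analysed here, and no count below speaks for them. On the first axis of a principal component analysis (54.7% of the variance), the PHLac-low library of repeat 4 had a score of -6.88 and the other PHLac-low libraries lay between -25.95 and -24.45, and the PHLac-high library of repeat 4 had 33.44, with the other PHLac-high libraries between 14.1 and 18.54. Both libraries of repeat 4 were thus displaced in the same direction. Of 10 epithelial and ductal markers, KRT19 and SOX9 were analysed, with a summed level from 17500 to 25096 in PHLac-low and from 20491 to 29638 in PHLac-high, most of it KRT19. KRT19 had a log2 change of 0.23 and was higher in 3 of 4 repeats, and SOX9 went from 2564 ± 197 to 5669 ± 340 (SD, n = 4) and was higher in all 4, by 1.15 on the log2 scale. Of 5 leukocyte markers, PTPRC, CD68 and CD14 were analysed, with a summed level from 1522 to 3403 in PHLac-low and from 1591 to 5276 in PHLac-high. These 3 went different ways in all 4 repeats: PTPRC was lower (mean 262 to 103, log2 change -1.36), and CD68 and CD14 were higher (0.55 and 0.47). Of 5 fibroblast markers COL1A1 was analysed, from 83.4 to 191 and from 60.8 to 126. The marker SNAI2 of the mesenchymal list ranged from 121 to 341 in PHLac-low and from 719 to 882 in PHLac-high. None of these was at 0 as a sum in any library, no endothelial marker was analysed, and the part of any of them in the results below was not tested.

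Of the 28 genes, 19 rose and 9 fell in PHLac-high. The test was limma on log2(normalised count + 1) with the repeat as a block and Benjamini-Hochberg adjustment over the 3666 genes at 0.05. The same test called 99.9% of the table, 58.7% of it higher and 41.2% lower, so the call itself sets no gene apart, and the shares of 67.9% and 32.1% stand beside those of the table. The change had the same sign in all 4 repeats for 17 higher and 8 lower genes, against 56.2% and 39.8% of the table. The exceptions were CCNE1, GADD45A and POLE, each of which had the other sign in 1 repeat, GADD45A barely so (0.999-fold in repeat 4). CDK13 counts among the 17 although it was almost level in repeat 4, at 1.02-fold. The PHLac-low and PHLac-high values did not overlap for 6 higher genes (CDK7, CDK17, CDK5R1, CDKN2AIP, XRCC4 and RAD54L2) and 1 lower gene (CDK5RAP3). Among all 3666 genes, 23.3% were higher and 13.4% were lower without overlap. A log2 change of at least 0.5 was reached by 7 higher genes (CCNE2, CDKL2, CDKN1A, CDK5R1, CDKN2AIP, E2F6 and GADD45G) and 3 lower genes (CDK18, RAD51B and PARP10), against 19.5% and 19.4% of the table. The median absolute log2 change was 0.40 over the 28 genes and 0.42 over the table.

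The directions by group stand beside 58.7% higher and 41.2% lower over the table. Both cyclins, the inhibitor CDKN1A, both E2F factors and the 3 GADD45 genes rose. The 9 kinases were split 5 to 4, the 2 polymerase epsilon subunits went opposite ways, and of 5 repair genes 2 rose and 3 fell. With so few genes in each group, these counts do not set the groups apart from the table. A difference between the groups was not tested, since the genes were chosen with earlier results of these libraries known.

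**Figure D1:**
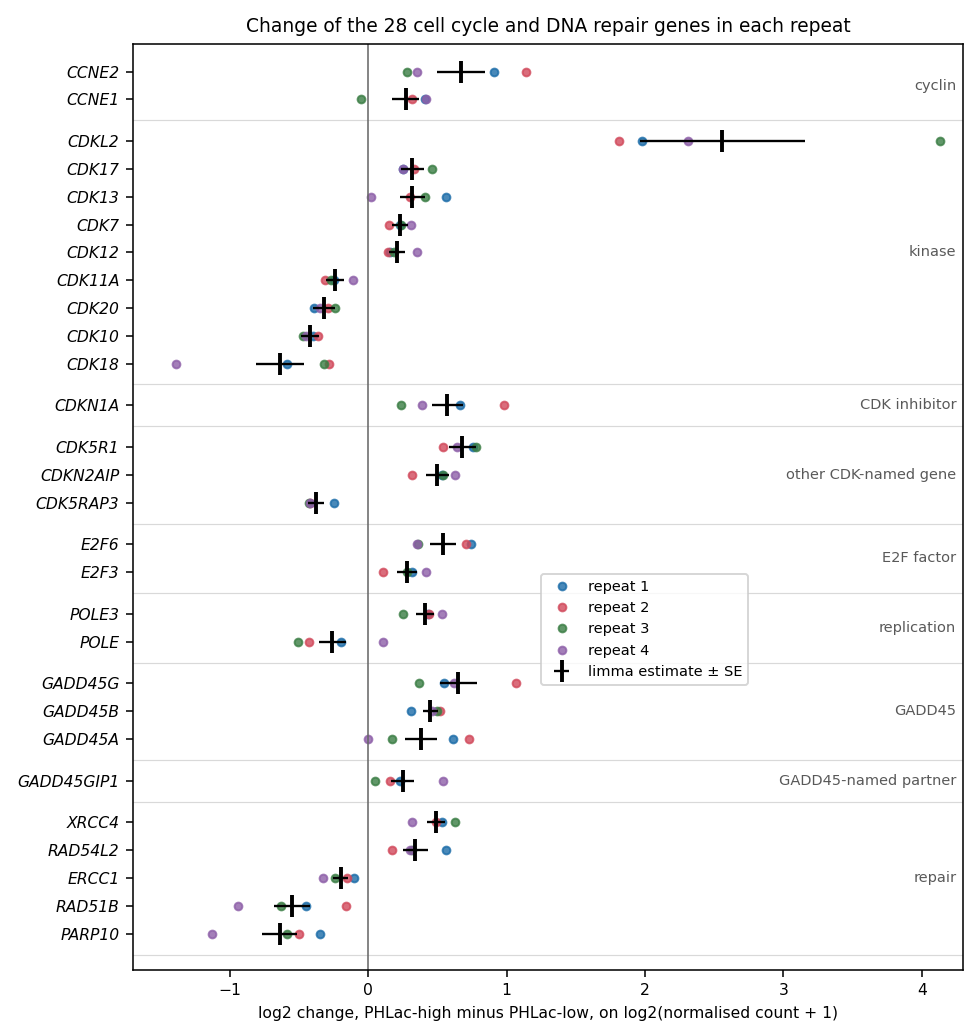
Log2 change of PHLac-high over PHLac-low, on the log2(normalised count + 1) scale, for the 28 genes by role; coloured points are the 4 repeats and the black mark is the limma estimate with its standard error. The cyclin, inhibitor, E2F and GADD45 estimates lie to the right of 0, CDKL2 lies farthest right at 2.56, and CDK18 and PARP10 farthest left at -0.64.

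The E-type cyclins activate CDK2 at the entry to S phase. CCNE1 (Entrez 898; chromosome 19, 29811898 to 29824308, GRCh38) had normalised counts, in the order of repeats 1 to 4, of 812, 731, 905 and 946 in PHLac-low and of 1078, 911, 873 and 1266 in PHLac-high. CCNE1 was higher in PHLac-high in repeats 1, 2 and 4 and lower in repeat 3, and the groups overlapped. The log2 change of CCNE1 was 0.27 ± 0.095 (SE, n = 4 pairs, limma adjusted p = 0.0198), and it was 0.41, 0.32, -0.05 and 0.42 by repeat. This call was lost when repeat 1, 2 or 4 was left out (limma adjusted p = 0.0825, 0.0727 and 0.0533), and the authors' deposited table gives CCNE1 an adjusted p of 0.0478, close to its limit. It was also lost with upper-quartile scaling, in which each library is divided by its own upper quartile over the 3666 genes, with median-of-ratios scaling and when corrected for GC content and length. The log2 change of CCNE1 was then 0.05, 0.16 and 0.14 (limma adjusted p = 0.674, 0.133 and 0.204). CCNE2 (Entrez 9134), the closely related E-type cyclin, was scarcer. Its counts were 90.9, 54.2, 209 and 313 in PHLac-low and 172, 121, 254 and 400 in PHLac-high. CCNE2 was higher in PHLac-high in every repeat, and the repeats lay farther apart than the fractions: repeat 4 was highest and repeat 2 lowest in both. Its log2 change was 0.67 ± 0.171 with the block (limma adjusted p = 0.00586) and the standard error was 0.554 without the block (limma adjusted p = 0.272). Per kilobase of its longest coding transcript, the level of CCNE1 was 415 in PHLac-low and 505 in PHLac-high, and that of CCNE2 was 50.1 and 71.0. Of the exon bases of CCNE2, 37.0% are shared with INTS8 on the opposite strand. Whether counting used the strand is not given in the sources used here.

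CDKN1A (Entrez 1026; chromosome 6, 36676460 to 36687339), which encodes the CDK inhibitor p21, was the sole inhibitor gene analysed. Its counts were 2378, 1476, 3218 and 1679 in PHLac-low and 3764, 2916, 3803 and 2200 in PHLac-high. Every repeat rose, from 1.18-fold in repeat 3 to 1.98-fold in repeat 2, and the groups overlapped because repeats 1 and 3 were high in both fractions. The log2 change was 0.57 ± 0.112 (limma adjusted p = 0.00214). Without the block it did not pass (limma adjusted p = 0.0966). With the authors' size factors, the inhibitor p21 and the E-type cyclins, which act on the same kinase in opposite ways, were higher in the same fraction, and CCNE1 was not past the threshold under the other scalings.

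E2F3 encodes an activator of S-phase genes, and E2F6 encodes a repressor of E2F-responsive genes that lacks the domain that binds the retinoblastoma protein. E2F6 (Entrez 1876; chromosome 2, 11444375 to 11466177) had counts of 920, 939, 1144 and 865 in PHLac-low and 1539, 1541, 1468 and 1106 in PHLac-high. The groups overlapped through repeat 4, whose PHLac-high library was below the PHLac-low library of repeat 3. Its log2 change was 0.54 ± 0.091 (limma adjusted p = 0.00109), and it passed also without the block (limma adjusted p = 0.0276). E2F3 (Entrez 1871) had 1695, 1585, 1897 and 1751 in PHLac-low and 2121, 1712, 2299 and 2350 in PHLac-high. E2F3 rose in each repeat, least in repeat 2, with a log2 change of 0.28 ± 0.070 (limma adjusted p = 0.0051). The change of E2F3 was 0.06 with upper-quartile scaling, where it did not pass (limma adjusted p = 0.484). Both E2F genes therefore rose with the authors' size factors, and E2F6 was the larger change.

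**Figure D2:**
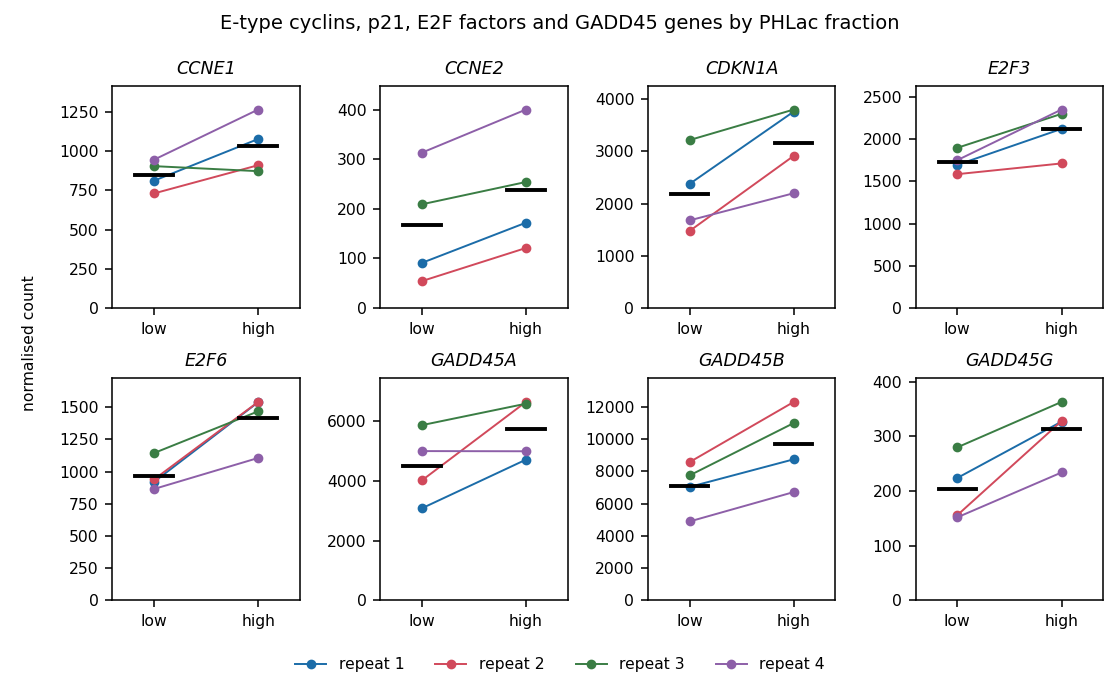
Normalised counts of the E-type cyclins, CDKN1A, the E2F factors and the GADD45 genes in PHLac-low and PHLac-high; each line joins the libraries of 1 repeat, the black bars are the means of 4 libraries, and each vertical axis starts at 0. Lines run upward in most panels, CCNE1 falls in repeat 3, GADD45A is flat in repeat 4, and in CCNE2 the repeats lie farther apart than the fractions.

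Since E2F factors act at the promoters of cell cycle genes, the promoters of the 28 genes were searched for the E2F-type letters TTTCCCGC, TTTGGCGC, TTTCGCGC and TTTGCCGC on both strands. RefSeq windows of 300 bases around the start (GRCh38.p14) were matched for 25 of the genes. No window was matched for CCNE2, GADD45A and PARP10, so their promoters were not searched. An E2F-type match was present in 3 of these 25 genes (12%), against 3.98% of 27058 genes with such a window. The 3 genes did not move together: E2F3 rose, and POLE and CDK10 fell. Their 250 bases before the start are shown 5′ to 3′ on the strand of the gene, with the E2F-type match in capitals, because the letters are of the kind that the E2F family binds. The windows are chr6:20401629-20401878 on the plus strand for E2F3, chr12:132687343-132687592 on the minus strand for POLE and chr16:89686439-89686688 on the plus strand for CDK10.
E2F3: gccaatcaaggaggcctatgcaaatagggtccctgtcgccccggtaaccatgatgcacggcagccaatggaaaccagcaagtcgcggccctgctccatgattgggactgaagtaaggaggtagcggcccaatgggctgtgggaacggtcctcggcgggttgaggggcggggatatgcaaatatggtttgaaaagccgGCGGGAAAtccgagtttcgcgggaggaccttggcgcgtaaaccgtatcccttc
POLE: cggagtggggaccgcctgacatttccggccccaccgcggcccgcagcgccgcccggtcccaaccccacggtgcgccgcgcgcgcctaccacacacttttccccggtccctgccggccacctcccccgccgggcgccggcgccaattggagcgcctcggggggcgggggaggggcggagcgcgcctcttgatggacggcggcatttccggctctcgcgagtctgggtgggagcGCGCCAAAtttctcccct
CDK10: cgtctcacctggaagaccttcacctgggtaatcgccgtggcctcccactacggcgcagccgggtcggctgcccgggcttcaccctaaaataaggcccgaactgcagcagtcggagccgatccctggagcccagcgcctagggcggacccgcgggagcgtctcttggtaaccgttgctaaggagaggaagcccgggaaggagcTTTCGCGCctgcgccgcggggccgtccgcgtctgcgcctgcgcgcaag
The match GCGGGAAA of E2F3 begins 53 bases before the start, GCGCCAAA of POLE 18 bases before it and TTTCGCGC of CDK10 48 bases before it. The E2F3 window also holds the cell cycle homology letters TTTGAA, 65 bases before the start, and 4 matches to CCAAT, and the POLE window holds 2. Over the 25 genes TTTGAA was present in 3 (12%, against 18.2% of all genes with a window) and CCAAT in 9 (36.0%, against 39.8%). These matches are descriptions of letters, and their number is too small to set the genes apart from other promoters.

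Of the 9 CDK family kinases 5 rose and 4 fell, beside 58.7% and 41.2% of the table. CDK7, which activates other CDKs and belongs to the transcription factor TFIIH, and CDK12 and CDK13, which partner cyclin K and phosphorylate the tail of RNA polymerase II, rose. CDK7 (Entrez 1022) had 2344, 2574, 2267 and 2273 in PHLac-low and 2756, 2863, 2676 and 2825 in PHLac-high. The groups of CDK7 did not overlap, and its log2 change was 0.23 ± 0.058 (limma adjusted p = 0.00529). CDK13 (Entrez 8621) had 1809, 2014, 2234 and 2024 in PHLac-low and 2666, 2486, 2970 and 2056 in PHLac-high. CDK13 rose 1.47-fold, 1.23-fold and 1.33-fold in repeats 1 to 3 and was level in repeat 4, at 1.02-fold, and its log2 change was 0.32 ± 0.088 (limma adjusted p = 0.00739). CDK12 (Entrez 51755) rose by 0.21 ± 0.058 (limma adjusted p = 0.00773), from a mean of 5036 ± 538 to 5865 ± 1013 (SD, n = 4). With upper-quartile scaling the log2 changes of CDK7, CDK13 and CDK12 were 0.01, 0.10 and -0.01, and none passed (limma adjusted p = 0.904, 0.363 and 0.865). With median-of-ratios scaling CDK13 still passed, at 0.21 (limma adjusted p = 0.0357). CDK7 and CDK12 did not pass there, at 0.12 and 0.09 (limma adjusted p = 0.121 and 0.199). The calls of CDK7 and CDK12 were thus made with the authors' size factors and lost with both other scalings.

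Among the other kinases that rose, CDK17 (Entrez 5128), a PCTAIRE kinase, had 439, 448, 469 and 453 in PHLac-low and 524, 564, 644 and 540 in PHLac-high. The groups of CDK17 did not overlap and its log2 change was 0.32 ± 0.085 (limma adjusted p = 0.00661). It became 0.10 with upper-quartile scaling (limma adjusted p = 0.406). CDKL2 (Entrez 8999; chromosome 4, 75578005 to 75630716), a CDK-like kinase, was close to the limit of detection in PHLac-low. Its values there were 4.29, 2.46, 0.959 and 0, from 5, 2, 2 and 0 reads, and in PHLac-high they were 19.9, 11.1, 33.4 and 3.97, from 17, 11, 28 and 3 reads. CDKL2 was higher in PHLac-high in all 4 repeats, although the PHLac-high library of repeat 4 lay below the PHLac-low library of repeat 1. Its log2 change of 2.56 ± 0.596 (limma adjusted p = 0.00424) was the 11th largest increase of the table, and it was 3.66 with a pseudocount of 0.1, so the size depends on how values near 0 are treated.

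CDK10, CDK11A, CDK18 and CDK20 fell. CDK10 (Entrez 8558), the partner of cyclin M, had 1623, 2028, 1891 and 1543 in PHLac-low and 1228, 1577, 1367 and 1131 in PHLac-high. Its decrease was nearly the same in each repeat, from 0.723-fold to 0.778-fold, and the log2 change was -0.42 ± 0.062 (limma adjusted p = 0.000623). CDK18 (Entrez 5129), another PCTAIRE kinase, had 667, 809, 540 and 438 in PHLac-low and 442, 668, 433 and 167 in PHLac-high. The decrease of CDK18 was largest in repeat 4, and its log2 change of -0.64 ± 0.174 (limma adjusted p = 0.00731) was -0.40 without that repeat. CDK20 (Entrez 23552), the cell cycle related kinase, had 582, 714, 621 and 613 in PHLac-low and 445, 582, 526 and 479 in PHLac-high. It fell in each repeat, with a log2 change of -0.32 ± 0.080 (limma adjusted p = 0.00561), and its groups met at 582. CDK11A (Entrez 728642) changed by -0.24 ± 0.068 (limma adjusted p = 0.00898), from 1383 ± 148 to 1177 ± 179 (SD, n = 4). CDK11A has the near-identical copy CDK11B, so the division of reads between them is uncertain, and 52.1% of its exon bases are shared with AL031282.2 on the same strand. The median log2 change of the 9 kinases was 0.21 with the authors' size factors and turned to -0.01 with upper-quartile scaling and to -0.11 after correction for GC content and length.

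**Figure D3:**
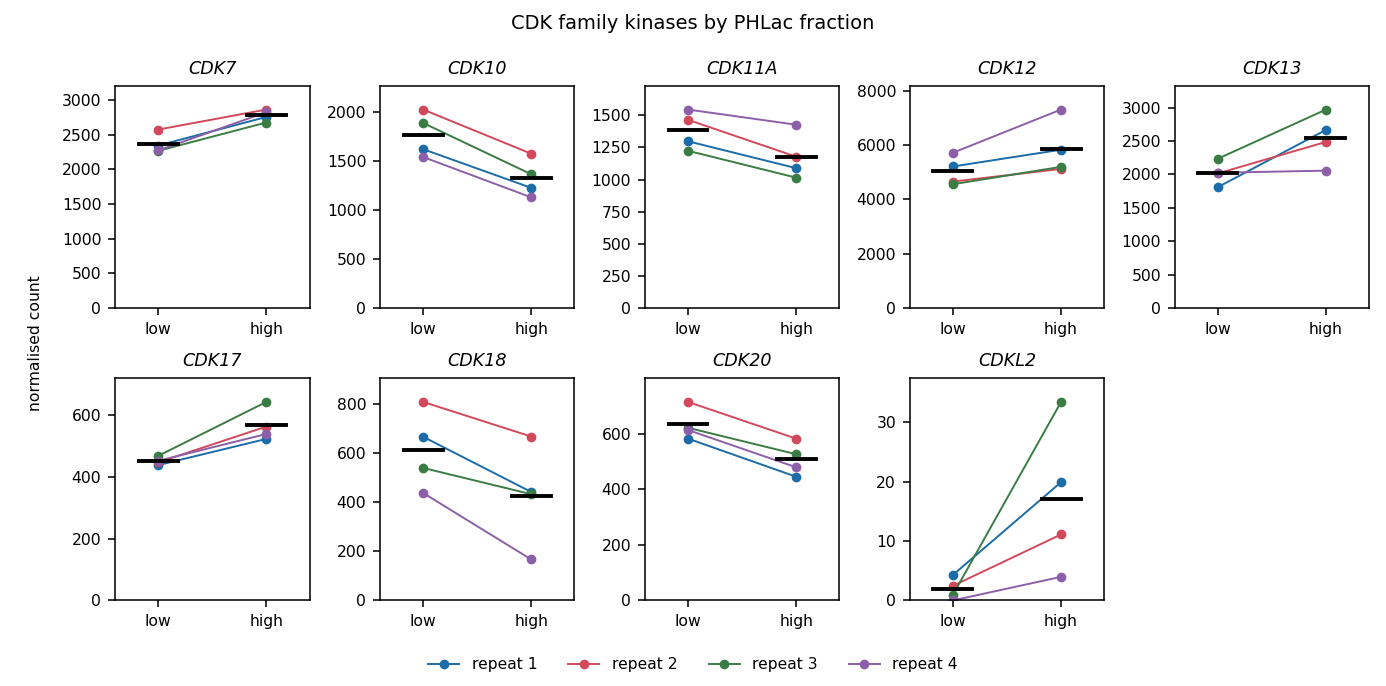
Normalised counts of the 9 CDK family kinases in PHLac-low and PHLac-high; lines join the libraries of 1 repeat, black bars are means of 4 libraries and each vertical axis starts at 0. CDK7, CDK12, CDK13, CDK17 and CDKL2 slope upward and CDK10, CDK11A, CDK18 and CDK20 downward, with CDK13 level in repeat 4.

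Another 3 genes carry CDK in their names without being kinases or inhibitors. CDK5R1 (Entrez 8851), which encodes the p35 activator of CDK5, had 270, 297, 315 and 208 in PHLac-low and 457, 432, 539 and 324 in PHLac-high. It rose 1.45-fold to 1.71-fold in the 4 repeats without overlap of the groups, and its log2 change was 0.68 ± 0.097 (limma adjusted p = 0.000546). CDKN2AIP (Entrez 55602), a binding partner of the CDKN2A product ARF, had 605, 779, 626 and 580 in PHLac-low and 872, 975, 909 and 896 in PHLac-high. Its groups did not overlap either and its log2 change was 0.50 ± 0.081 (limma adjusted p = 0.000899). CDK5RAP3 (Entrez 80279), a partner of the enzyme that attaches the ubiquitin-like protein UFM1, had 4481, 4544, 5486 and 4129 in PHLac-low and 3778, 3395, 4058 and 3081 in PHLac-high. CDK5RAP3 fell without overlap, with a log2 change of -0.38 ± 0.058 (limma adjusted p = 0.000708), and 30.6% of its exon bases are shared with AC018521.1 on the same strand. These 3 genes also passed without the block (limma adjusted p = 0.0358, 0.0229 and 0.0476).

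The GADD45 proteins bind stress-activated kinases, p21 and the replication clamp PCNA, and their genes are induced by DNA damage and other stress. GADD45B (Entrez 4616; chromosome 19, 2476122 to 2478259) had 7032, 8569, 7745 and 4892 in PHLac-low and 8743, 12298, 10990 and 6714 in PHLac-high. It rose 1.24-fold to 1.44-fold in each repeat, and the low level of repeat 4 in both fractions made the groups overlap. Its log2 change was 0.45 ± 0.056 (limma adjusted p = 0.000295), the smallest adjusted p among the 28 genes. GADD45G (Entrez 10912) had 224, 156, 280 and 152 in PHLac-low and 327, 328, 363 and 234 in PHLac-high. It rose most in repeat 2, 2.10-fold, and its log2 change was 0.65 ± 0.134 (limma adjusted p = 0.00261). GADD45A (Entrez 1647) had 3078, 4009, 5858 and 4992 in PHLac-low and 4706, 6635, 6576 and 4986 in PHLac-high. The log2 difference was 0.61, 0.73 and 0.17 in repeats 1 to 3, and repeat 4 was level. The log2 change of GADD45A was 0.38 ± 0.116 (limma adjusted p = 0.0118), and without repeat 2 it was 0.26 and did not pass (limma adjusted p = 0.0728). With upper-quartile scaling the changes of GADD45B, GADD45G and GADD45A were 0.22, 0.43 and 0.15, of which the last did not pass (limma adjusted p = 0.269). Per kilobase of transcript in PHLac-high, GADD45B had 7055 normalised counts, GADD45A 3827 and GADD45G 294. GADD45GIP1 (Entrez 90480) is named for binding GADD45 proteins and encodes a protein of the mitochondrial ribosome. Its log2 change was 0.25 ± 0.083 (limma adjusted p = 0.0176) and 0.15 without repeat 4. It became 0.02 with upper-quartile scaling and 0.13 with median-of-ratios scaling, and neither passed (limma adjusted p = 0.837 and 0.168).

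DNA polymerase epsilon copies the leading strand. POLE (Entrez 5426), its catalytic subunit, had 2760, 2436, 2559 and 3835 in PHLac-low and 2407, 1810, 1798 and 4129 in PHLac-high. POLE was lower in PHLac-high in repeats 1 to 3 and higher in repeat 4, where both libraries exceeded all others. The log2 change was -0.26 ± 0.099 (limma adjusted p = 0.0304). It was lost when repeat 1, 2 or 3 was left out, with -0.28, -0.20 and -0.17 (limma adjusted p = 0.0504, 0.144 and 0.142), and when corrected for GC content and length, with -0.23 (limma adjusted p = 0.0512). POLE3 (Entrez 54107), a histone-fold accessory subunit, had 3293, 2635, 3034 and 4769 in PHLac-low and 4436, 3565, 3606 and 6907 in PHLac-high. POLE3 rose in each repeat, by 0.41 ± 0.063 (limma adjusted p = 0.000706), and it too was highest in repeat 4 of both fractions. The catalytic and the accessory subunit thus differed in direction in repeats 1 to 3 and both rose in repeat 4.

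Among the repair genes, XRCC4 (Entrez 7518; chromosome 5, 83077498 to 83353787), the partner of DNA ligase IV in end joining, had 2721, 2991, 2662 and 2630 in PHLac-low and 3926, 4199, 4118 and 3282 in PHLac-high. The groups of XRCC4 did not overlap and its log2 change was 0.49 ± 0.065 (limma adjusted p = 0.000389), which passed also without the block (limma adjusted p = 0.0146). The log2 change of XRCC4 was 0.27 with upper-quartile scaling and 0.37 with median-of-ratios scaling (limma adjusted p = 0.00796 and 0.000607). Corrected for GC content and length, which also subtracts each library's average deviation, it was 0.18 (limma adjusted p = 0.0256). The transcript GC content of XRCC4, 36.7%, was the lowest among the 28 genes, and its part in the smaller value was not tested. RAD54L2 (Entrez 23132), an ATPase of the SNF2 family, had 451, 577, 506 and 627 in PHLac-low and 668, 650, 631 and 772 in PHLac-high. Its groups were separated narrowly, between 627 and 631, and its log2 change was 0.34 ± 0.091 (limma adjusted p = 0.00705). With upper-quartile scaling that change was 0.11 and did not pass (limma adjusted p = 0.309).

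RAD51B, PARP10 and ERCC1 fell. RAD51B (Entrez 5890), which acts in homologous recombination, had 376, 322, 576 and 402 in PHLac-low and 275, 288, 371 and 209 in PHLac-high. It fell in each repeat, from 0.892-fold in repeat 2 to 0.521-fold in repeat 4, with a log2 change of -0.55 ± 0.133 (limma adjusted p = 0.00493). PARP10 (Entrez 84875), which attaches single ADP-ribose units to proteins, had 1026, 725, 1014 and 486 in PHLac-low and 803, 512, 673 and 221 in PHLac-high. The decrease of PARP10 was -0.64 ± 0.126 (limma adjusted p = 0.00213). It became -0.28 when corrected for GC content and length (limma adjusted p = 0.0522), and its GC content of 66.9% was the highest of the 28. ERCC1 (Entrez 2067), the partner of the XPF nuclease in excision repair, had 11700, 16080, 17815 and 11724 in PHLac-low and 10943, 14542, 15114 and 9312 in PHLac-high. Its decrease was small, -0.20 ± 0.057 (limma adjusted p = 0.00818), and the repeats differed by more than the fractions. Of its exon bases 28.6% are shared with CD3EAP on the opposite strand, which went the other way, with a log2 change of 0.41 ± 0.099 (limma adjusted p = 0.00493).

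**Figure D4:**
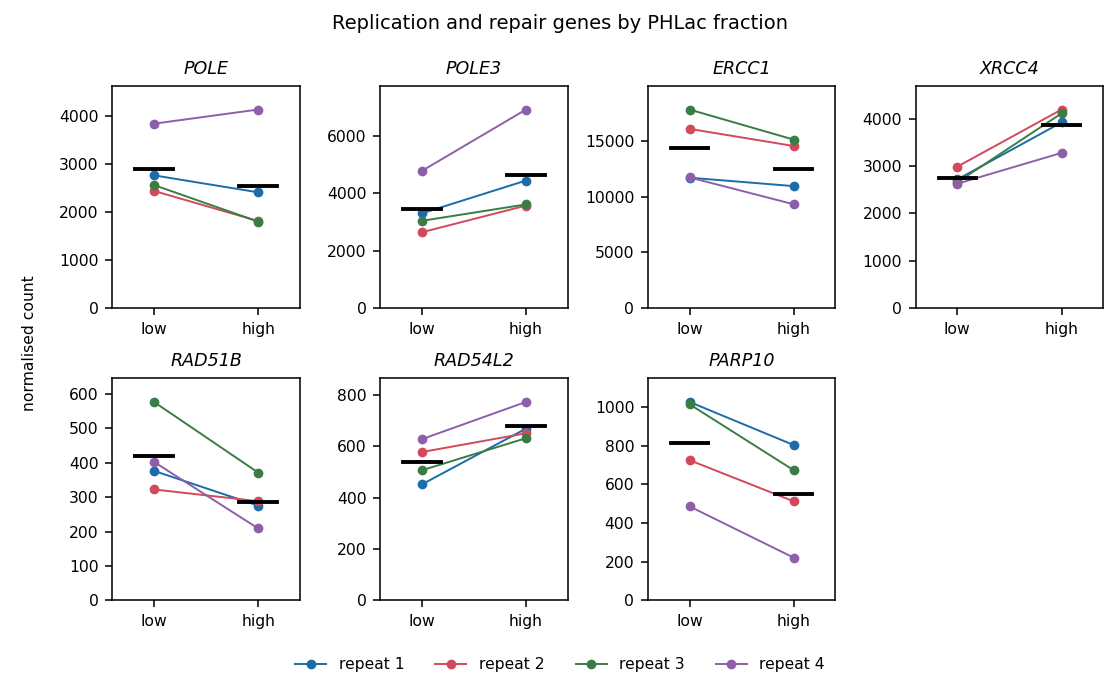
Normalised counts of the polymerase epsilon subunits and of genes named for repair in PHLac-low and PHLac-high; lines join the libraries of 1 repeat, black bars are means of 4 libraries and each vertical axis starts at 0. POLE rises in repeat 4 and falls in the others, XRCC4 rises without overlap, and RAD51B, PARP10 and ERCC1 fall in every repeat.

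Other genes of these pathways were described from lists of symbols, whose counts stand beside 58.7% higher and 41.2% lower over the table. Of 30 S-phase genes 3 were analysed and all 3 rose: the replication clamp gene PCNA by 0.29 ± 0.106, the flap nuclease gene FEN1 by 0.29 ± 0.107 and the histone stem-loop binding gene SLBP by 0.26 ± 0.072 (SE, limma adjusted p = 0.0251, 0.0246 and 0.00815). PCNA and FEN1 rose in 3 of 4 repeats. Of 35 mitotic genes 3 were analysed and all 3 rose. AURKA, a kinase of spindle assembly, went from 6094 ± 1724 to 11599 ± 4678 (SD, n = 4), with a log2 change of 0.90 ± 0.089 (limma adjusted p = 0.000124). WEE1, the kinase that holds CDK1 inactive before mitosis, rose by 0.82 ± 0.111, and ANLN, a scaffold of the cleavage furrow, by 0.29 ± 0.086 (limma adjusted p = 0.000405 and 0.0103). Of 26 genes of the anaphase-promoting complex, SCF ligases and retinoblastoma pathway 6 were analysed, 5 higher and 1 lower. With 3, 3 and 6 genes, these counts do not set the lists apart from the table. The higher ones were MYC (0.59), FBXW7 (0.51), which marks MYC and cyclin E for degradation, LIN54 (0.41), SKP1 (0.33) and CUL1 (0.23), and ANAPC2 fell by 0.28 on the log2 scale.

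Of 66 other genes of damage signalling and repair 13 were analysed, 4 higher and 9 lower, with a median log2 change of -0.30 against 0.25 over the table. The lower ones were the base excision genes NEIL1 (-0.84), MUTYH (-0.37) and LIG3 (-0.24), the mismatch repair genes PMS2 (-0.33) and MLH3 (-0.30), the polymerase genes POLM (-0.45), POLI (-0.37) and POLL (-0.30), and the helicase gene RECQL5 (-0.50). The higher ones were REV3L (0.77), which encodes the catalytic subunit of polymerase zeta, H2AFX (0.52), XPA (0.28) and TDG (0.26). Each of these list members passed in limma, as did 99.9% of the table, so the counts describe direction among listed genes only.

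Many of these genes were ordered by repeat as well as by fraction. In both fractions repeat 4 was the highest library for 8 of the 28 genes (CCNE1, CCNE2, CDK11A, CDK12, POLE, POLE3, GADD45GIP1 and RAD54L2) and the lowest for 10 (CDK10, CDK18, CDKL2, CDK5R1, CDK5RAP3, E2F6, GADD45B, GADD45G, XRCC4 and PARP10). These shares of 28.6% and 35.7% stand beside 28.5% and 29.4% of the table. The median standard error of the 28 log2 changes was 0.087 with the block and 0.176 without it. Without the block 7 of the 28 genes passed, against 31.0% of the table. They were 5 higher genes (CDKL2, CDK5R1, CDKN2AIP, E2F6 and XRCC4), against 20.3%, and 2 lower genes (CDK10 and CDK5RAP3), against 10.7%. With the block and without repeat 1, 2, 3 or 4, the higher genes numbered 18, 17, 19 and 18, against 55.2%, 55.8%, 56.1% and 58.2% of the table. The lower genes then numbered 8, 8, 8 and 9, against 39.4%, 39.0%, 39.1% and 40.7%.

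The number of higher genes depended on the scaling, and that of lower genes did so less. The median log2 change of the table was 0.25 with the authors' size factors, 0.13 with median-of-ratios factors from the listed genes and 0.02 with upper-quartile scaling. Both scalings from the listed genes lowered each of the 28 log2 changes. Such a shift takes away higher calls and keeps lower ones by construction. The unequal loss is therefore no measure of how firm the rises and falls are. Relative to the upper quartile, 10 of the 28 genes rose (CCNE2, CDKL2, CDKN1A, CDK5R1, CDKN2AIP, E2F6, POLE3, GADD45B, GADD45G and XRCC4) and 9 fell, against 23.2% and 41.2% of the table. The higher genes had a median transcript GC content of 45.2% and the lower genes 55.4%, beside 46.6% and 56.8% for the higher and lower genes of the table. With a correction of every library for GC content and length, 11 of the 28 rose and 7 fell, against 32.6% and 29.9% of 3509 genes. CDK7 and CDK12 then had log2 changes of -0.11 and -0.03, opposite in sign to those with the authors' size factors and not past the threshold (limma adjusted p = 0.161 and 0.748).

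**Figure D5:**
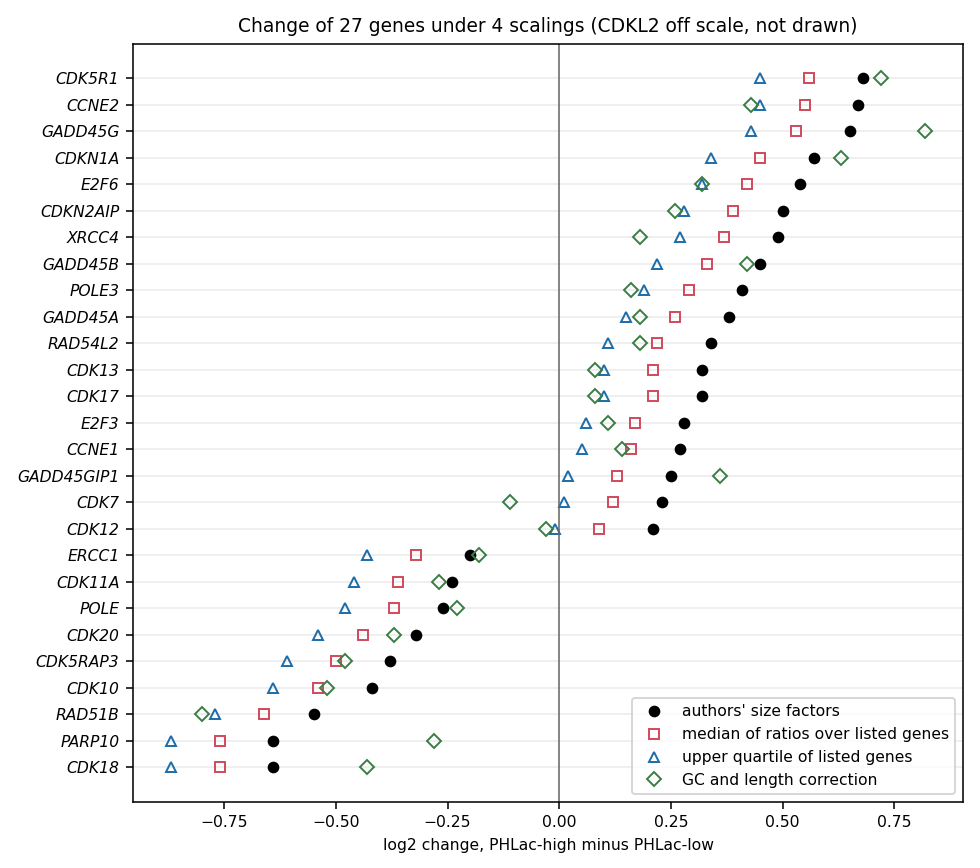
Log2 change of PHLac-high over PHLac-low for 27 of the genes (CDKL2, at 2.56, is left out for scale) under the authors' size factors, 2 scalings from the listed genes, and a GC and length correction. Upper-quartile values lie to the left of the black points, CDK7 and CDK12 reach or cross 0, and CCNE2, CDKN1A, CDK5R1 and GADD45G stay at 0.34 or above under each setting.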

How the data were processed

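Messenger RNA of 8 libraries was analysed from 1 deposited table. Groups and repeat numbers came from the sample titles. The authors' deposited read signal per library equals reads over a size factor for that library: 100% of values were whole multiples of 1 step per library (within 0.01 read). The authors also deposited a log2 fold change and an adjusted p-value. Per the submitters' processing notes, hg38, STAR, SAMtools, Subread and DESeq2 were used; roles, versions, annotation and filters are not given in the sources used here. No sample column was unmatched.

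The test was limma 3.58.1 (R 4.3.3), with trend, on log2(value + 1) with the repeat as a block. It was adjusted by Benjamini-Hochberg over 3666 genes at 0.05 and was run on simulated data. The simulation changed a small part of the genes and did not imitate a table already selected for a difference. It therefore gives no error rate for the calls made here. Fold changes on this scale understate changes of low genes. Nothing says that repeats were separate cultures, so p-values measure only the spread between these samples. The series' text states the pairing, and deviations of same-numbered libraries correlated at 0.53, 0.66, 0.73 and 0.76.

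Of the genes that matched the names, 1 is not reported here. Members, lists and tests were chosen with earlier results of these data known. Values in every library are given for cyclins, inhibitors and GADD45 genes. Elsewhere they are given for the 3 largest changes per group with a mean of at least 100 and the same sign in 4 repeats, and for the sole gene that went 1 way in a group of 3 or more. Others were added after their values were seen. GC content, length, positions and overlaps came from GENCODE release 29 (GC content and length for 95.7% of genes), and promoters from RefSeq. The GC and length correction subtracted lowess curves (span 0.3) and thereby also each library's average deviation.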

Additional observations from a re-analysis of the deposited data

Results flagged for a closer look

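In 84 groups of 4 values (the PHLac-low counts, the PHLac-high counts and the log2 changes by repeat of each of the 28 genes), the gap of the farthest value to its neighbour was divided by the group's whole range. Chance picks out about 1 in 20 such groups, here 4.2, and 2 were picked out. The log2 change of CDK5RAP3 in repeat 1 was -0.25, against -0.43, -0.42 and -0.42 in the others, a gap of 0.923 of the range. The PHLac-high count of E2F6 in repeat 4 was 1106, against 1468, 1539 and 1541, a gap of 0.834 of the range. The causes were not tested.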

How the results depend on the processing

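The 19 higher and 9 lower genes became 5 and 2 with no replicate block. There were 10 higher with upper-quartile scaling, which lowered all 28 changes, and 11 higher after GC and length correction. They were 7 and 3 with a minimum absolute log2 change of 0.5, which lowers a count by construction. Leaving out each repeat in turn gave from 17 to 19 higher and from 8 to 9 lower genes, and a median log2 change of all 28 from 0.26 to 0.30. Reversed single values were CDK12 at -0.014 with upper-quartile scaling and -0.026 after GC and length correction, and CDK7 at -0.11 after that correction. With upper-quartile scaling the median log2 change was -0.014 for kinases, 0.28 for other CDK-named genes, 0.22 for GADD45 genes, -0.43 for repair genes and 0.08 for all 28. With median-of-ratios scaling it was 0.093 for kinases, -0.32 for repair genes and 0.19 for all 28. After GC and length correction it was -0.11 for kinases, 0.26 for other CDK-named genes and 0.12 for all 28. For kinases with a mean of at least 100 it was -0.014. That filter leaves out CDKL2 alone (mean 9.51), and the median then lies midway between CDK12 (0.21) and CDK11A (-0.24). Apart from the scalings, the stated construction and this filter, the cause was not tested. The edgeR and DESeq2 alternatives were not run, because 4 of the 8 libraries had fewer than 100 genes with 1 to 20 reads (42 to 98), too few for the check of whole reads that those tests required. Depth limits CDKL2 most.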
